A study of Homo sapiens with 4 samples.

Results

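Azacytidine (AZA) was compared with vehicle in MDS-L/CDA cells, the AZA-resistant derivative of the MDS-L line. The comparison used 2 of the 4 arrays of the series, both of MDS-L/CDA cells, 1 with AZA and 1 with vehicle, chosen by sample title. Of 41804 gene names on the array, 15088 had a signal well above background on at least 1 of these 2 arrays and were followed. The other 2 arrays, MDS-L with AZA and with vehicle, were used for comparison only.

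MDS-L is an established line derived from a patient with myelodysplastic syndrome (MDS), and MDS-L/CDA was made from it by transducing CDA, by the methods of the study. Whether MDS-L/CDA is a pool or 1 clone is not given in the sources used here. The vehicle groups received 0.1% DMSO and the AZA groups 1 μM AZA, each for 72 h, in medium with serum, IL-3 and 2-mercaptoethanol. The titles write the AZA dose in mM, while the descriptions and the treatment protocol write it in μM. For the MDS-L/CDA vehicle array the treatment field names AZA, and for the MDS-L AZA array it names DMSO, both against title, description and source name. Every direction given here, in either line, rests on the titles. Each condition had 1 array. No test, no p-value and no error between cultures could therefore be given for any ratio, and no difference has a replicate check.

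AZA is a cytidine analogue that cells phosphorylate and build into RNA and, after reduction, into DNA, where it traps DNA methyltransferases and lowers methylation as cells divide. Cytidine deaminase, the product of CDA, converts AZA to a uridine analogue that does not act on methyltransferases. In leukaemic cells AZA is known for raising genes silenced by promoter methylation and for inflammatory and differentiation-linked changes.

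Signals were scaled to the 75th percentile of their array and are given in units of it, so that a signal of 1 equals that percentile. The percentile itself was 40.8 on the MDS-L/CDA vehicle array and 37.3 on the MDS-L/CDA AZA array, and 52.5 and 52.9 on the MDS-L arrays. By the scanner's own flag 32.6% of the 58185 probes were well above background on either MDS-L/CDA array. The lowest signal with that flag was 0.272 with vehicle and 0.296 with AZA, and a probe without the flag gives only an upper bound. Among repeated spots of 1 probe the median SD was 0.153 with vehicle and 0.201 with AZA on the log2 scale, which covers spot error alone. Of 11 haematopoietic markers 10 were measured on both MDS-L/CDA arrays, among them PTPRC, CD34, CD33 and RUNX1. Of 6 lymphoid markers 2 were measured, among them CD79A, and of 9 stromal or epithelial markers KRT8 and KRT18.

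The CDA probe (chr1:20945069-20945128 of hg19, plus strand) read 0.110 with vehicle and 0.146 with AZA in cells labelled MDS-L/CDA, neither well above background. It was not well above background on either MDS-L array. Which bases of CDA were transduced is not given in the sources used here, so this probe does not check the label. DNMT1, the maintenance methyltransferase, read 8.96 with vehicle and 9.98 with AZA, a ratio of 1.11.

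A gene was called increased when its AZA/vehicle ratio was at least 2 and decreased when it was at most 1/2. Where 1 side was not well above background, the ratio was taken against the higher of that side's signal and the lowest signal flagged well above background, which gives a lower bound of the change. By this rule 378 genes were increased (2.51%) and 454 decreased (3.01%) in MDS-L/CDA cells. Counts of called list members below are to be read beside these shares. Of the increases 278 were measured on both arrays and 100 were lower bounds, and of the decreases 385 and 69. A gene measured with AZA only could by this rule not be called decreased, nor 1 measured with vehicle only increased. Changes past 4-fold were few, with 37 increases and 22 decreases. Of genes measured on both arrays, 83.3% lay within 1.5-fold. Increases made up 45.4% of the calls, but 29.2% with the arrays left unscaled, which moved the median of all genes from 0.02 to -0.11 on the log2 scale, and 27.4% with another background correction (normexp).

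**Figure D1:**
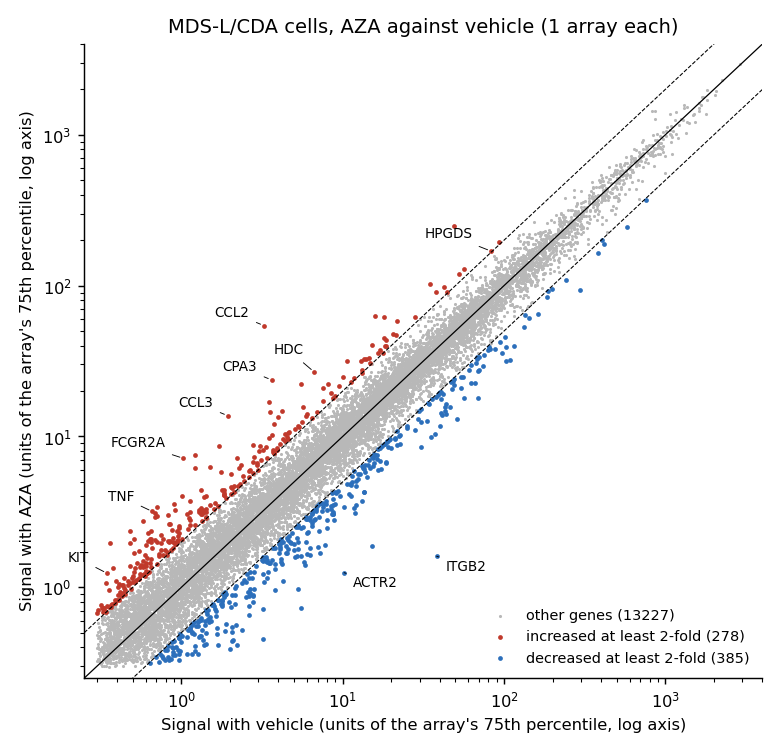
Signal of each gene with vehicle (horizontal axis) and with AZA (vertical axis) in MDS-L/CDA cells, both in units of the array's 75th percentile on log axes, for genes measured on both arrays. The solid line marks equal signal and the dashed lines a 2-fold difference, with 278 genes above them and 385 below, and ITGB2 lying far below the rest.

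CCL2, which attracts monocytes, had the largest ratio of any matched gene measured on both MDS-L/CDA arrays. Its probe (chr17:32584050-32584109 of hg19, plus strand) read 3.25 with vehicle and 54.4 with AZA, 16.7-fold higher. It read 3.04 and 104 on the MDS-L arrays. The next were CCL3, another chemokine, at 7.09-fold, FCGR2A, a low-affinity IgG receptor, at 6.97-fold, CPA3, the carboxypeptidase of mast cell granules, at 6.54-fold, and TP53INP1, a p53-induced nuclear protein, at 6.21-fold. FCGR2B (5.49-fold) and FCGR2C (5.02-fold), relatives of FCGR2A, were also among the 15 largest. SH2D2A (4.90-fold) and LAX1 (4.27-fold) encode adaptors of lymphocyte signalling, TNF (4.82-fold) is an inflammatory cytokine, and VWF (4.78-fold) carries platelets to injured vessels. All of these were also increased in MDS-L cells. Of the 15 largest increases, ZBTB9 (4.92-fold), GNB5 (4.77-fold) and LAMTOR3 (4.50-fold) were not, with MDS-L ratios of 0.764, 0.637 and 0.865. For these 3 the MDS-L/CDA vehicle array alone read low. ZBTB9, for instance, read 0.479 there, against 2.36 with AZA and 1.99 and 1.52 on the MDS-L arrays.

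Among genes measured with AZA only, the largest lower bounds were those of CCL4L2, a copy of the chemokine gene CCL4 (at least 21.6-fold), and EDN1, which encodes endothelin (at least 8.57-fold). IL1RL1, the receptor for IL-33, followed at 7.59-fold or more, then OR8G1, an olfactory receptor, at 6.67-fold or more, and ACTG2, a smooth muscle actin, at 6.20-fold or more. OR8G1 was not well above background on either MDS-L array, whereas the other 4 were increased in MDS-L cells too. With a mean over its probes ACTG2 had a log2 ratio of 0.30, under the threshold.

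Chemokines as a group had the largest median change of any list of at least 3 measured genes, though not under every alternative. MDS-L/CDA cells gave a measured signal for 10 of the 26 on the array. Of the 10, 8 were increased and none decreased, where 2.51% and 3.01% of all measured genes were. The median log2 ratio was 1.57, against 0.02 over all measured genes. On arrays of bulk RNA more cells of a type and more RNA per cell, or fewer and less, cannot be told apart. CCL3 read 1.94 with vehicle and 13.7 with AZA, and CCL1, a T cell attractant, 0.379 and 1.35. CXCL2 and CXCL3, which attract neutrophils, read 2.25 and 0.553 with vehicle and 4.72 and 1.37 with AZA. Vehicle signals were not well above background for CCL4L2 (0.255, against 5.88 with AZA), CCL3L3 (0.116 and 1.15, at least 4.22-fold) and CCL23 (0.105 and 0.616, at least 2.26-fold). These counted as measured through the AZA array only, and so could not have been called decreased. The 2 measured members within 2-fold were CCL24 and CXCL5, each with a log2 ratio of 0.13. CCL3 (ratio 2.70 in MDS-L) and CCL4L2 (7.42) had larger ratios in MDS-L/CDA cells than in MDS-L cells, while CCL2 (34.1), CCL1 (at least 17.9) and CXCL3 (4.48) had smaller ones. CCL3 and CCL3L3, like CCL4 and CCL4L2, are near-identical gene copies, and whether their probes also bind the other copy was not tested. The chemokine median fell to 0.59 with normexp and to 0.31 over all 26 genes with no filter on dim probes. In both cases the list of mast cell, basophil and eosinophil genes stood higher, with a median between 0.86 and 1.09 under the alternatives.

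Cytokine genes and feedback genes of NF-kB, the transcription factor behind many inflammatory genes, had a median of 0.33. Of 16 measured, 5 were increased and none decreased, where 2.51% and 3.01% of all measured genes were. TNF read 0.660 with vehicle and 3.18 with AZA, and CSF1, the growth factor of macrophages, 0.915 and 3.23. IL1RN, the natural IL-1 blocker, rose 2.51-fold and LIF, a cytokine of the IL-6 family, 2.15-fold. NFKB2 lay at the threshold with a ratio of 2.00. The NF-kB inhibitors NFKBIA and TNFAIP3 had ratios of 1.11 and 1.41, and IL1B, increased 2.35-fold in MDS-L cells, had a ratio of 1.07. Of 6 chemokine receptors measured, CCRL2 (2.14-fold) and CCR7 (at least 3.58-fold) were increased. CXCR4, the homing receptor of marrow cells, was not well above background on either MDS-L/CDA array, though it read 2.78 and 12.5 on the MDS-L arrays.

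Genes of mast cells, basophils and eosinophils formed the next list, with a median of 1.02. Of 14 measured, 8 were increased and CTSG decreased, where 2.51% and 3.01% of all measured genes were. CPA3 (probe at chr3:148614465-148614524 of hg19, plus strand) read 3.62 with vehicle and 23.7 with AZA. HDC, which makes histamine, read 6.64 and 26.8, and FCER1A, the chain of the IgE receptor that binds IgE, 3.56 and 14.5. SIGLEC6, a sialic acid receptor, rose 3.51-fold, TPSAB1, a tryptase, 2.21-fold, HPGDS, which makes prostaglandin D2, 2.04-fold, and GATA2, a transcription factor of this lineage, 2.01-fold. IL1RL1 read 0.295 with vehicle, not well above background, and 2.24 with AZA. CTSG, the granule protease cathepsin G, went the other way, from 5.29 with vehicle to 2.00 with AZA, a ratio of 0.378. It was also decreased in MDS-L cells, with a ratio of 0.488. The MDS-L median of the list was 1.96, with 13 of 18 measured members increased. Of the 11 members measured on all 4 arrays, 3 had the higher log2 ratio in MDS-L/CDA cells.

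Of 10 Fc receptor and signalling genes measured, 4 were increased, against 2.51% of all measured genes, and the median was 0.73. They were FCGR2A, FCGR2B, FCGR2C and FCER1A, the last also counted in the list of mast cell, basophil and eosinophil genes. FCGR2A read 1.03 with vehicle and 7.16 with AZA, FCGR2B 0.359 and 1.97, and FCGR2C 1.71 and 8.58. The 3 IgG receptor genes had nearly the same ratios in both lines, 6.76, 5.96 and 4.92 in MDS-L cells. Their probes share at most 23 of 60 bases in any alignment without gaps, yet the genes are close copies and cross-hybridization was not tested. FCER1G, a signalling chain of Fc receptors such as FCER1A, had a ratio of 1.70, and the kinases LYN and SYK had log2 ratios of 0.26 and 0.15. The median was 0.42 with normexp and with a mean over all probes of a gene, and 0.12 with no filter on dim probes.

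**Figure D2:**
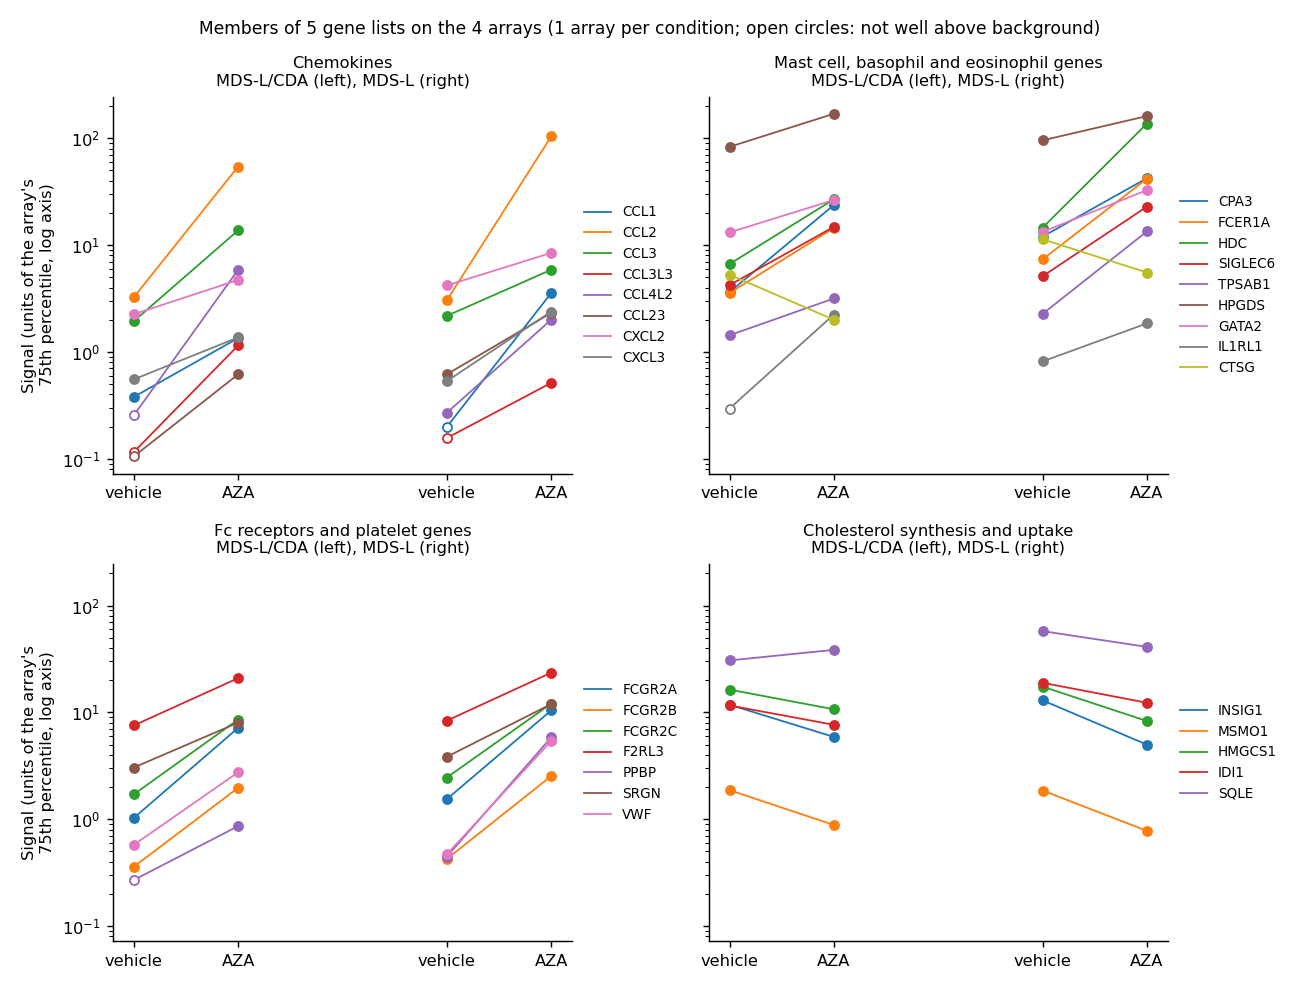
Signal (vertical axis, units of the array's 75th percentile, log scale) on the 4 arrays of selected members of 5 gene lists, mostly those called in MDS-L/CDA cells, MDS-L/CDA on the left and MDS-L on the right of each panel, with lines joining vehicle and AZA of 1 gene and open circles for signals not well above background. Of the genes drawn, all chemokine, mast cell, Fc receptor and platelet genes but CTSG slope upward in both lines, and the cholesterol genes drawn slope downward, apart from SQLE in MDS-L/CDA cells.

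Platelet genes had a median of 0.76, and 4 of the 9 measured were increased, against 2.51% of all measured genes. VWF read 0.576 with vehicle and 2.75 with AZA, F2RL3, a thrombin receptor, 7.55 and 20.9, and SRGN, a granule proteoglycan, 3.05 and 8.02. PPBP, a platelet chemokine, was not well above background with vehicle and increased at least 3.17-fold with AZA. GP1BB, which carries part of the von Willebrand factor receptor, had a ratio of 1.25, against 9.33 in MDS-L cells. In MDS-L cells the median was 1.78 and 8 of 12 were increased. With normexp the MDS-L/CDA median was 0.46, and it was 0.15 over all members with no filter.

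Of 18 erythroid and megakaryocyte transcription factors measured, GATA1, GATA2 and TAL1 were increased and none decreased. GATA1, the factor shared by red cells, platelets and mast cells, read 0.507 with vehicle and 2.08 with AZA, 4.10-fold higher. TAL1, its partner, rose 2.35-fold. KLF1, a red cell factor, had a ratio of 0.701, and the list's median was 0.17. Among globins HBD was increased, from 5.53 to 22.2, while HBB and HBG1 were not well above background on either MDS-L/CDA array. The spots around HBD on the array had a median log2 ratio of -0.33. Of 18 genes measured in the list of heme synthesis and iron uptake, CPOX rose 2.21-fold and ALAD had a ratio of 0.441. BPGM, a bisphosphoglycerate mutase that the list also holds though it acts in neither process, had 0.492.

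Among 13 haematopoietic cytokine receptors, KIT, the receptor for stem cell factor, was increased and TNFRSF1A, a TNF receptor, decreased. KIT (probe at chr4:55606511-55606570 of hg19, plus strand) read 0.346 with vehicle and 1.24 with AZA, 3.58-fold higher, where MDS-L cells read 0.503 and 23.8. TNFRSF1A had a ratio of 0.472, and 0.393 in MDS-L cells. The 3 receptor chains for IL-3 and GM-CSF, IL3RA, CSF2RA and CSF2RB, had ratios of 1.36, 1.36 and 1.5. Of 12 neutrophil and myeloid effector genes 4 were increased, against 2.51% of all measured genes. They were MMP9, a gelatinase (3.27-fold), CD36, a scavenger receptor (at least 3.13-fold), and NCF4 and NCF1, subunits of the phagocyte oxidase (2.64-fold and 2.21-fold). MPO and ELANE, granule enzymes of early neutrophils, were not well above background on any array. The list's median of 0.71 was 0.27 with normexp and 0.09 with no filter on dim probes.

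Promoter sequence is shown for 5 of these genes, since promoters of genes increased in both lines held fewer sites of DNA methylation than those of measured genes. RefSeq promoters were taken as the 250 bases before the annotated start (GRCh38.p14), and 9617 of the 15088 measured genes had one. The median number of CG dinucleotides (CpG, the site that methyltransferases modify) was 21 over measured genes and 12 over the genes increased in both lines. It was 16 over all genes increased in MDS-L/CDA cells and 20, near that of measured genes, over those increased in MDS-L/CDA cells alone. At most 5 CpG were found in 34.9% of the 126 promoters of genes increased in both lines. The share was 20.9% of 115 for genes increased in MDS-L/CDA cells alone, 7.55% of 278 for decreased genes, and 10.5% for measured genes. The share among 532 genes increased in MDS-L cells alone was 25.4%. Over all 27305 RefSeq promoters, most of which belong to genes not measured here, it was 38.7%.

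The promoters of CPA3 (chr3:148865046-148865295, plus strand) and FCER1A (chr1:159302086-159302335, plus strand) held no CpG and carried the GATA motif AGATAA, read on both strands, which is in capitals. FCGR2A (chr1:161505207-161505456, plus strand) held 4 CpG and CCL3 (chr17:36090144-36090393, minus strand) 2, whereas KIT (chr4:54657707-54657956, plus strand) held 34, and in these 3 the capitals mark CpG.
CPA3: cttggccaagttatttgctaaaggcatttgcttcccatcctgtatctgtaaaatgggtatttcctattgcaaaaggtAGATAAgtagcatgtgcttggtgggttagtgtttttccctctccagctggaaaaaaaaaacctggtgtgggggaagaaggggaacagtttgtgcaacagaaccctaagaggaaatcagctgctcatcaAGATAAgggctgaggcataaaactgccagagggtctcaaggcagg
FCER1A: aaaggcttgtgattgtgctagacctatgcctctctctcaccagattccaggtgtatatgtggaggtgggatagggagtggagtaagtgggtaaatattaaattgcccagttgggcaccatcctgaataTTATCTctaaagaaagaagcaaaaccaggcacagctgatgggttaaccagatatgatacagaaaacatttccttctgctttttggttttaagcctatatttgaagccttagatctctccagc
FCGR2A: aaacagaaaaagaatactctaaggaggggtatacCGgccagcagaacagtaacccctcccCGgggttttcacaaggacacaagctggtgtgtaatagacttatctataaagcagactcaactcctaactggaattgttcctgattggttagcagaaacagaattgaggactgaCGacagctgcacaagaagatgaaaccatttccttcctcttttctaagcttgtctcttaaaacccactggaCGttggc
CCL3: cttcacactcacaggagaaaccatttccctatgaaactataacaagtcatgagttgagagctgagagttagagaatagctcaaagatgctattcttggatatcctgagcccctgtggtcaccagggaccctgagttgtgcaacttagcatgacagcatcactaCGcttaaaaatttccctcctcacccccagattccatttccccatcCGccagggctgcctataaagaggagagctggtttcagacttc
KIT: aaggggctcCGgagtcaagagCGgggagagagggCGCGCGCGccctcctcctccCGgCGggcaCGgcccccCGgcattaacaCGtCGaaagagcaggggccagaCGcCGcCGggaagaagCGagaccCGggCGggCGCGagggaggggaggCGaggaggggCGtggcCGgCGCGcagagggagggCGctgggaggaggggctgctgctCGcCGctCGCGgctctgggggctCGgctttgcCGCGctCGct
CPA3 had 2 matches to the GATA motif and FCER1A had 1. The motif was found in 4.60% of the promoters of measured genes, 11.1% of those of genes increased in both lines and 4 of 11 promoters of the mast cell, basophil and eosinophil list (36.4%), against 9.37% of all promoters. GATA1 and HDC had none within the window. The NF-kB consensus motif, read on both strands, lay in 3 of 8 chemokine promoters, 37.5%, against 1.44% for measured genes and 1.27% for all promoters. Over all genes increased in MDS-L/CDA cells it lay in 3 of 241 promoters (1.2%), and in 1.59% for genes increased in both lines, near the share of measured genes. An AP-1 motif (TGANTCA, which reads alike on either strand) lay in 7.94% of promoters of genes increased in both lines, 3.67% for measured genes and 6.60% for all. These matches describe letters in a window and show no binding or methylation.

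Early response genes, which cells switch on within minutes of a stimulus, also lay above all genes. Of 14 EGR, NR4A and IER genes, BTG2, EGR1, IER3 and KLF2 were increased and ARC decreased, with a median of 0.68 that fell to 0.33 with normexp. BTG2, an antiproliferative gene that p53 also induces, read 18.0 with vehicle and 62.4 with AZA. IER3 rose 2.77-fold and KLF2, a zinc finger factor, 3.07-fold. EGR1 was not well above background with vehicle and rose at least 2.27-fold, against 10.8-fold in MDS-L cells. ARC had a ratio of 0.403, and the spots around it a median log2 ratio of -0.45. Of 12 AP-1 genes measured, FOS (2.66-fold) and MAFF (at least 2.96-fold) were increased and 10 lay above a ratio of 1. Among 14 feedback genes of the MAPK pathway, SPRY2 was increased 2.14-fold.

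Targets of p53, the damage response factor, had a median of 0.29 over 32 measured genes, 23 of them above a ratio of 1. TP53INP1 read 1.22 with vehicle and 7.57 with AZA. CDKN1A, the cell cycle inhibitor p21, was not well above background with vehicle and increased at least 2.20-fold, and TNFRSF10C, a decoy receptor for TRAIL, rose 2.14-fold. TNFRSF10B, a death receptor for TRAIL, went from 0.788 with vehicle to 0.299 with AZA, which was not well above background, at least 2.63-fold lower. DRAM1, an autophagy gene, read 41.9 and 19. MDM2, which degrades p53, had a ratio of 1.38, while BAX and GADD45A had 1.01 and 0.903. In the BCL2 family, BMF, which promotes cell death, rose 2.23-fold and BCL2L11 had a ratio of 0.479. The other measured probe of BCL2L11 had a log2 ratio of -0.17.

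Cholesterol synthesis and uptake was the only list of at least 3 measured genes whose median lay 0.25 or more below that of all genes on the log2 scale, against 17 lists that lay as far above. Its median was -0.43, and 18 of 23 measured members were below a ratio of 1. No member was increased and 4 were decreased. Among these, MSMO1, a sterol oxidase, read 1.87 with vehicle and 0.884 with AZA, and INSIG1, which holds back the sterol-sensing SREBP factors, 11.8 and 5.90. HMGCS1, an early enzyme of the pathway, had a ratio of 0.654, IDI1, an isomerase of its isoprenoid steps, 0.659, and SQLE, which oxidizes squalene, had 1.26. MSMO1 and INSIG1 were also decreased in MDS-L cells, with ratios of 0.419 and 0.385. In MDS-L cells the median was -0.77 and all 23 members lay below 1, and 20 of the 23 had the higher log2 ratio in MDS-L/CDA cells. The median stayed between -0.56 and -0.38 under the alternatives.

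The largest decrease was that of ITGB2, the β2 chain of leukocyte integrins. Its probe (chr21:46305926-46305985 of hg19, minus strand) read 38.2 with vehicle and 1.61 with AZA, 23.8-fold lower, and 34.0 and 18.1 on the MDS-L arrays. ACTR2, a subunit of the Arp2/3 complex that branches actin, read 10.2 and 1.25, and its MDS-L ratio was 1.20. ESD, an esterase, read 15.2 and 1.88, with a median log2 ratio of -0.56 in the spots around it. Of the 15 largest decreases 6 were also decreased in MDS-L cells, among them ABCB10, a mitochondrial transporter (ratio 0.185), SLC16A1, a lactate transporter (0.188), and TXLNG (0.246). CTDSPL2 (0.242), SNORD45B (0.246) and ESD were the others. The 9 not decreased in MDS-L cells were ITGB2, ACTR2, LOC730101, ZSCAN2, SOS2, EID2B, APIP, C1orf216 and LANCL1. SOS2, an activator of Ras, had a ratio of 0.195, against 1.52 in MDS-L cells. For ZSCAN2 the named probe had a ratio of 0.141 and the other measured probe a log2 ratio of 0.10. The lower bounds past these were those of TRAK2, which ties mitochondria to motors (at least 8.68-fold lower), ZNF436-AS1 (6.94), PLIN2, a coat protein of lipid droplets (6.16), HSPA4L, a chaperone (4.08), and DDX11-AS1 (3.83). The spots around TRAK2 and PLIN2 had median log2 ratios of -0.57 and -0.63. Another measured probe of PLIN2 had a log2 ratio of -0.39, within 2-fold. With normexp TRAK2, PLIN2, HSPA4L and DDX11-AS1 fell under 2-fold, with log2 ratios of -0.92, -0.80, -0.64 and -0.63.

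Genes of the cell cycle were near their vehicle level. No member of the mitosis and G2/M list was called among 33 measured, and 27 lay above a ratio of 1, with a median of 0.19. CCNB1, the mitotic cyclin, had a ratio of 1.56, AURKA, a spindle kinase, 1.32, and TOP2A, a topoisomerase, 1.35. MKI67 and CDK1 had 1.02 and 1.04. The MDS-L median was -0.44 and all 33 members had the higher log2 ratio in MDS-L/CDA cells. The 36 genes of DNA replication and nucleotide synthesis had a median of -0.03, with CHAF1A, a histone chaperone subunit, increased 2.31-fold. The other measured probe of CHAF1A had a log2 ratio of 0.19. In MDS-L cells all 36 lay below a ratio of 1. Of 58 histone genes expressed in S phase 2 were decreased, HIST1H3G (ratio 0.474) and HIST1H3I (0.489), and the median was -0.20, where 33 of 60 were decreased in MDS-L cells with a median of -1.08. RAD54L, which acts in recombination, was decreased to a ratio of 0.361 and was the only gene called among 29 of homologous recombination and the Fanconi pathway.

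Cancer-testis antigens, whose genes are silenced by methylation in most tissues, were seldom measured. MDS-L/CDA cells gave a measured signal for 6 of the 54 on the array, and none was called, with a median of -0.08. In MDS-L cells 18 were measured and 9 increased. GAGE2B read 0.774 with vehicle and 0.952 with AZA in MDS-L/CDA cells, and 0.592 and 45.1 in MDS-L cells. No ratio is given for ALOX12, ADCYAP1, CHAC1, PRAME or BIK, as neither MDS-L/CDA array had a signal well above background for any of them. ANGPT2, a vessel growth factor, was well above background with AZA only, at 0.397, which bounds its ratio at 1.46 or more and leaves it uncalled.

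Among genes that act on AZA or on DNA methylation, calls were about as frequent as over all measured genes (2.51% increased and 3.01% decreased), with 0 of 17 measured in the list of AZA uptake, activation and breakdown. UCK1 and UCK2, the kinases that activate AZA, had ratios of 1.71 and 0.676, the transporter SLC29A1 1.21, and RRM1 and RRM2, subunits of ribonucleotide reductase, 0.862 and 1.40. DNMT3A and DNMT3B, the de novo methyltransferases, had ratios of 1.07 and 0.920. APOBEC3B, a cytosine deaminase that acts on DNA, was not well above background with vehicle and increased at least 2.83-fold, the 1 call among 19 methylation genes measured. For the integrated stress response, which cells mount when amino acids run short, the median was -0.03 over 29 genes. ASNS and SLC7A11 had ratios of 0.888 and 0.742, against 1.86 and 2.40 in MDS-L cells. SLC38A2, an amino acid transporter, was decreased to 0.296, and its surrounding spots had a median log2 ratio of -0.72.

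Of 30 interferon-stimulated genes measured, IFIT1 (2.30-fold) and ISG20 (2.77-fold) were increased and RSAD2 (ratio 0.498) and TRIM22 (0.459) decreased. HLA-G was decreased among 16 class I genes, and among 7 class II genes measured HLA-DMA and HLA-DPA1 were increased and HLA-DRA decreased. Of 14 eicosanoid genes measured 4 were increased, where 2.51% of all measured genes were. ALOX5AP, which serves 5-lipoxygenase, rose 2.90-fold, HPGD, which breaks down prostaglandins, 2.45-fold, and PTGS2, the inducible cyclooxygenase, at least 2.88-fold, beside HPGDS. PTGS2 had an MDS-L ratio of 1.03. TPM1, a tropomyosin, rose 2.35-fold and its other measured probe had a log2 ratio of 1.03. Of 208 zinc finger genes on chromosome 19 measured, ZNF180, ZNF227 and ZNF541 were increased and 7 decreased. Of 148 long intergenic noncoding RNAs 7 were increased and 3 decreased, and of 276 antisense RNAs 4 and 7. Over all measured genes 2.51% were increased and 3.01% decreased. The medians of the zinc finger, intergenic and antisense lists were 0.02, 0.03 and -0.0016, against 0.02 over all measured genes. Of all 55 lists 12 had no member called, among them the unfolded protein response and metallothioneins. By chromosome the share of measured genes increased ran from 1.16% on chromosome 13 (3 of 258) to 4.49% on chromosome 4 (22 of 490). The share decreased ran from 1.18% on chromosome 20 (5 of 425) to 5.46% on chromosome 21 (10 of 183). These extremes rest on few genes and were not tested.

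The change in MDS-L/CDA cells was smaller than in MDS-L cells and partly in the same genes. In MDS-L cells 1113 of 16705 measured genes were increased (6.66%) and 1009 decreased (6.04%). Of the MDS-L/CDA increases 183 were also increased in MDS-L cells, 48.4% of the former and 16.4% of the latter. Of the decreases 126 were shared, 27.8% and 12.5%. Log2 ratios had an SD of 0.47 in MDS-L/CDA cells and 0.66 in MDS-L cells. Among 123 shared increases measured on all 4 arrays, the ratio was larger in MDS-L cells for 100, with median ratios of 2.47 in MDS-L/CDA cells and 4.04 in MDS-L cells. Over the 13721 genes measured on all 4 arrays, Pearson's r between the log2 ratios of the lines was 0.39 and Spearman's rho 0.36, across genes that are not independent replicates and lie on arrays of 1 slide. With each array scaled to its median, shared increases numbered 117.

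Genes with a large MDS-L ratio had the larger MDS-L/CDA ratios. For the 395 genes with an MDS-L ratio from 2 to 4 the median MDS-L/CDA ratio was 1.39, for the 104 from 4 to 8 it was 1.99, and for the 21 of 8 or more it was 2.60. All 21 of the latter lay above 1 in MDS-L/CDA cells and 12 were increased, among them KCNK5, a potassium channel (2.96-fold), ACSBG1, an acyl-CoA synthetase (2.77-fold), HOXB5 (3.21-fold) and P2RY14, a nucleotide sugar receptor (3.07-fold). The other 9 included GAGE2B (1.23), the imprinted RNA H19 (1.18), TRIB2 (1.18), the kinase FGR (1.62) and RASD1 (1.37). H19 read 0.749 with vehicle and 0.887 with AZA in MDS-L/CDA cells, and 0.747 and 18.3 in MDS-L cells. These genes were singled out by their MDS-L ratio after the values were seen. For decreases the lines differed more, with a median MDS-L/CDA ratio of 0.711 for the 57 genes under 0.25 in MDS-L cells.

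**Figure D3:**
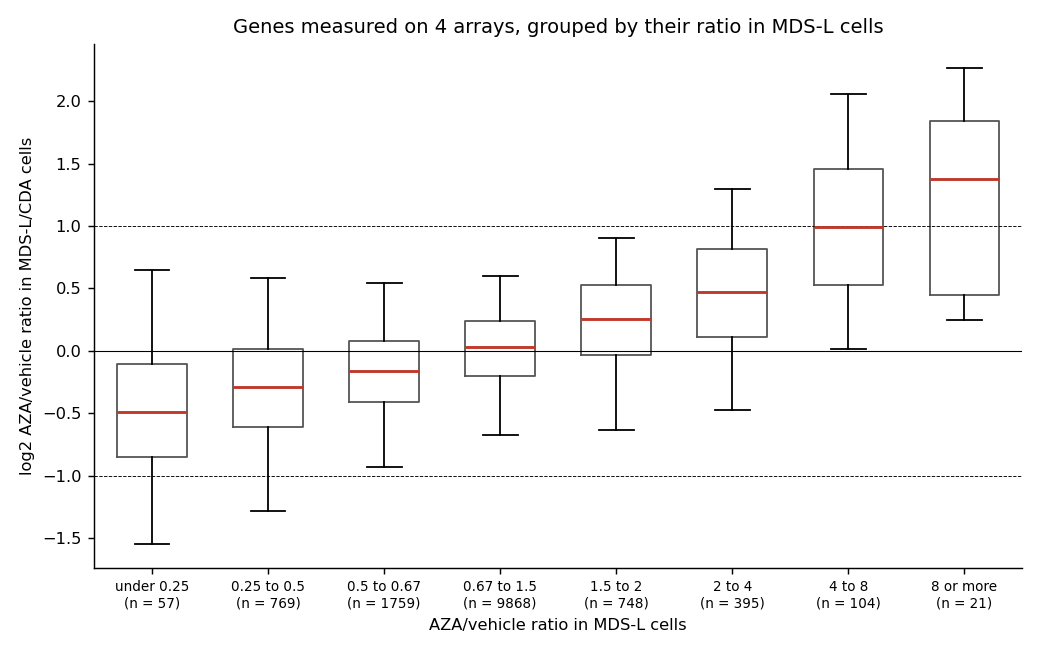
Log2 ratio of AZA to vehicle in resistant MDS-L/CDA cells (vertical axis) of genes measured on all 4 arrays, grouped by their AZA/vehicle ratio in MDS-L cells (horizontal axis, number of genes below each box). Boxes span the quartiles with the median in red, whiskers the 5th to 95th percentile, and dashed lines mark 2-fold, and the medians climb from 0.711 as a ratio in the lowest group to 2.60 in the highest.

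Shared calls and calls made in MDS-L/CDA cells alone were set side by side in 3 other measures. The first is the other probes of the same gene. For shared increases measured on both arrays with another measured probe, that probe had the same sign for 11 of 13 genes and reached 1.5-fold for 10. For increases in MDS-L/CDA cells alone the numbers were 12 and 8 of 15, and for shared decreases 9 and 5 of 12. For decreases in MDS-L/CDA cells alone the other probe had the same sign for 23 of 53 genes, reached 1.5-fold for 2 and 2-fold for none, with a median log2 ratio of 0.07. The second is the place on the array. The median log2 ratio of the 20 nearest measured spots of other probes was at least 0.25 in the direction of the call for 7.81% of shared increases, 36.0% of increases in MDS-L/CDA cells alone, 18.7% of shared decreases and 29.1% of decreases in MDS-L/CDA cells alone, against 7.33% above 0.25 and 6.23% below -0.25 over all 20280 spots. The third is which array stood apart. Of the 277 decreases in MDS-L/CDA cells alone that were measured on all 4 arrays, the MDS-L/CDA AZA array lay at least 0.5 on the log2 scale outside the range of the other 3 for 196 (70.8%), and of the 148 such increases the MDS-L/CDA vehicle array did so for 71 (48.0%). The AZA array stood apart in this way for 22 of 101 shared decreases (21.8%), and the vehicle array for 35 of 123 shared increases (28.5%). For increases in MDS-L/CDA cells alone the AZA array stood apart for 44 (29.7%), and for such decreases the vehicle array for 47 (17.0%). Over all genes the shares were 5.15% for the AZA array and 3.43% for the vehicle array, and the rule for a call favours such genes. The part of array position in these calls was not tested beyond leaving it out, which gave 332 increases and 395 decreases.

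**Figure D4:**
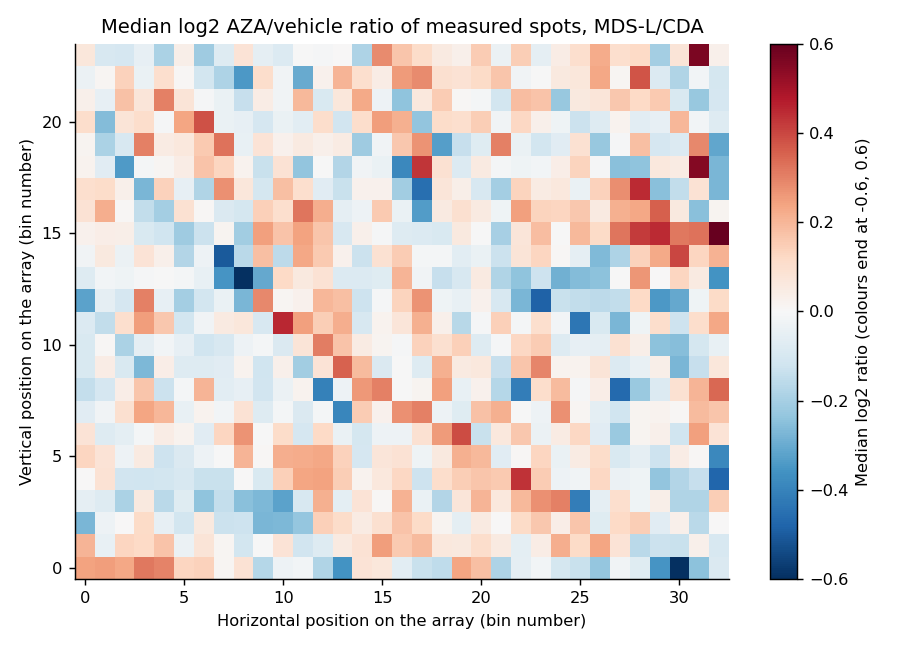
Median log2 AZA/vehicle ratio of measured spots in MDS-L/CDA cells by position on the array (both axes in bin numbers), with red for higher and blue for lower signal with AZA. Single bins run from -0.77 to 0.72, and the patches of 1 colour show that neighbouring spots share part of their ratio.

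Probes also differed in base composition. The median GC content of the 60-base probe was 43.3% over measured genes, 45.0% for shared increases and 40.0% for increases in MDS-L/CDA cells alone, and 36.7% and 38.3% for the corresponding decreases. Its part in the calls was not tested. Among 262 genes with up to 10 spots of 1 probe used on each array, the median SD of the spot log2 ratios was 0.26. The SD ran from 0.07 to 1.01 between genes, and 3 had a mean past 2-fold. Spot log2 ratios ran from 3.73 to 4.55 for CCL2. They ran from -2.49 to 0.06 for NIPSNAP1 (mean -1.24) and from -2.94 to 0.38 for ZFP36L2 (mean -1.06), so single spots of these decreases differed widely.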

How the data were processed

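Total RNA from both lines was hybridized by the authors to 4 Agilent one-colour arrays on 1 slide. The deposited scanner files hold each spot's intensity, background-subtracted and detrended within the array by Agilent's Feature Extraction software, with no scaling between arrays. A deposited table of intensity values, whose columns were scaled between arrays by the authors in a way not given in the sources used here, served as an alternative. Treatments came from the titles.

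Control spots were dropped, repeated spots of 1 probe were averaged as log2 signal, and each array's 75th percentile was subtracted. A gene was represented by the probe with the highest mean signal over both MDS-L/CDA arrays, and was measured when that probe was well above background on at least 1 of them. Names of genes were taken from the array design, and 22644 of 41804 matched RefSeq. Probe positions are in hg19 per the file headers, and whether a probe lies in coding or untranslated sequence was not analysed here. The authors' criterion joined a ratio of 2 with a Z score whose formula is not given in the sources used here. The ratio alone was used, with a Z score over 10 bins of signal as an alternative. With 1 array a condition no statistical test was run, and the number of arrays limits the precision.

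The members and gene lists were chosen with earlier results of these data known. Named genes were the 15 largest ratios in each direction with a RefSeq match, the 5 largest lower bounds, list members past 2-fold, up to 4 further bright members of a list, genes past 2-fold in opposite directions in the lines, and 8 genes given by name. Other members within 2-fold were named after their values were seen, and some genes are not reported here. The alternatives were 4 other scalings, normexp (limma 3.58.1, R 4.3.3, offset 50), the deposited table, filters on dim probes, a mean over probes, and folds of 1.5 and 3. Python 3.11.15, numpy 2.4.6 and pandas 2.3.3 were used, and the calculations were tested on simulated data.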

Additional observations from a re-analysis of the deposited data

Results flagged for a closer look

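In 17 genes with a RefSeq match, among 11448 measured on all 4 arrays, the ratios of the lines lay past 2-fold in opposite directions, and none of these differences was tested. Of these, 12 were higher with AZA in MDS-L/CDA cells and lower in MDS-L cells. PRIM2, a primase subunit, had log2 ratios of 1.70 in MDS-L/CDA and -1.58 in MDS-L cells, CHAF1A 1.21 and -1.46, and POLR2E, a subunit shared by RNA polymerases, 1.11 and -2.95. The other measured probes of PRIM2 and CHAF1A had MDS-L/CDA log2 ratios of 0.56 and 0.19. CCNJ, a cyclin, had 1.17 and -2.55, PDE4D, which breaks down cyclic AMP, 1.01 and -1.54, and NKG7, a granule protein of cytotoxic cells, 1.03 and -1.15. ACAA2, a mitochondrial thiolase, had 1.02 and -1.23, MTO1, which modifies mitochondrial tRNA, 1.05 and -1.02, and ZNF180 had 1.03 and -1.19. KIAA1467 had 1.16 and -1.42, GOLT1B 1.07 and -1.09, and CEP85L 1.06 and -1.15. The spots around ZNF180, CEP85L, POLR2E and CHAF1A had median log2 ratios of 0.46, 0.33, 0.32 and 0.27 in MDS-L/CDA cells. For POLR2E the MDS-L vehicle array alone read high, at 134, against 17.3 with AZA and 16.5 and 35.6 on the MDS-L/CDA arrays. For CCNJ it read 5.03, against 0.861 with AZA and 0.640 and 1.44 on the MDS-L/CDA arrays. CHAF1A read 104 with vehicle and 38.0 with AZA in MDS-L cells, and 42.2 and 97.6 in MDS-L/CDA cells.

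The genes lower with AZA in MDS-L/CDA cells and higher in MDS-L cells were led by RWDD2B, with log2 ratios of -1.94 and 1.07 and a median of -0.52 in the spots around it. For KIAA0922 that median was -0.26. PIK3R2, a regulatory subunit of PI3-kinase, had -1.55 and 1.02, the readthrough gene TMED7-TICAM2 -1.42 and 1.03, SEMA3B, a secreted semaphorin, -1.04 and 1.53, and KIAA0922 -1.0 and 1.34.

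In 6 gene lists the medians of the lines had opposite signs, again untested with 1 array a condition. The medians over all measured genes were 0.02 in MDS-L/CDA and -0.13 in MDS-L cells. Mitosis and G2/M genes had median log2 ratios of 0.19 in MDS-L/CDA and -0.44 in MDS-L cells, HLA class II genes 0.24 and -0.43, and G1 cyclins and CDK inhibitors 0.13 and -0.23. Leukocyte integrins had 0.23 and -0.18, progenitor and myeloid surface markers 0.21 and -0.17, and heat shock proteins 0.12 and -0.15, so that in MDS-L cells these 3 lay close to all genes. The MDS-L/CDA sign was not kept under every alternative for 3 lists. With no scaling it was -0.0024 for G1 cyclins and CDK inhibitors and -0.0068 for heat shock proteins, and with the local median subtracted -0.12 for HLA class II presentation.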

How the results depend on the processing

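The number of calls depended on the background correction and the rule. Of the calls, 10 had the opposite sign with a mean over probes (6 increases, 4 decreases), 2 decreases with normexp and 2 increases with the deposited table. Of 53 list medians 19 changed sign or reached 0 under some alternative. Counts are given here for genes increased in MDS-L/CDA cells, genes decreased in MDS-L/CDA cells and genes increased in both lines, which numbered 378, 454 and 183. With normexp they were 66, 175 and 31. Normexp adds an offset to every signal, which lowers the ratios of dim probes by construction. Without the filter on dim probes the counts were 2181, 2065 and 695, with a fold of 1.5 they were 1397, 1428 and 573, and with a fold of 3 they were 75, 84 and 43. The last count was 117 with median scaling and 108 with the Z score added. Increases otherwise ran from 262 to 404 and decreases from 371 to 636. Lists whose median lay at least 0.25 from that of all genes numbered 18, and 8 with no filter. Of the 30 named genes measured on both arrays, 20 remained past 2-fold with normexp and 27 with a mean over probes. FCGR2B, VWF, LAMTOR3, SLC16A1, SOS2, EID2B, APIP, C1orf216, TXLNG and SNORD45B did not with normexp, nor did the lower bound genes ACTG2 (log2 ratio 0.95), TRAK2, PLIN2, HSPA4L and DDX11-AS1. Subtracting the local median of 20 neighbouring spots, chosen after seeing the data, kept 71.2% of the increases and 72.0% of the decreases. No paired analysis was possible because each group has 1 array and the result comes from no test. No array could be left out, since each condition has 1. Signal over background limits dim genes, as a probe not well above background yields a bound only.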
